A study of Mus musculus with 13 samples.

Results

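The muscle coat of the gut, the pacemaker cells that pace it and the enteric nerves that steer it were followed through 32 genes, chosen by name: 18 genes of smooth muscle, 3 of the interstitial cells of Cajal, 8 of enteric neurons and 3 of enteric glia. All 32 were found in the platform annotation, each with 1 probe set, among 19572 named probe sets of 19505 genes. RNA came from washed, frozen colon and ileum of female FVB mice. A syngeneic mammary carcinoma that expresses human HER2 was present in the mice of every group, controls included. The 13 arrays were 3 of colon under vancomycin, 4 of colon without antibiotic, 3 of ileum under vancomycin and 3 of ileum without antibiotic. Vancomycin, an antibiotic against Gram-positive bacteria that is hardly absorbed from the gut, was given in drinking water (200 mg/L), and mice were 4 weeks old at the start. Samples were taken at 9 weeks, with tumours at 150 mm3; the labels do not say whether these weeks are age or treatment. They name neither the depth of the gut wall taken nor its position along the bowel, nor whether arrays came from separate mice. P-values therefore measure the spread between these samples, which may be technical.

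Smooth muscle contracts when calcium activates myosin light chain kinase, which lets smooth muscle myosin pull on actin filaments tied to dense bodies and intermediate filaments. Interstitial cells of Cajal generate slow electrical waves through a calcium-activated chloride channel and depend on the receptor kinase Kit. Neurons of the myenteric and submucosal plexus excite or relax the muscle, and enteric glia ensheath them.

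Many contractile genes are known targets of serum response factor, which binds the CArG box. RefSeq promoter windows of 300 bases (GRCm38.p6) were matched by gene identifier, or by symbol where that failed. They were found for 25 of the 32 genes, among them 14 of the 18 smooth muscle genes. The CArG box reads the same on both strands. In its exact form it lay in the windows of Myl9 and Elavl4, which was 1 of 14 smooth muscle genes, against 1.7% of 15691 named genes with a window. A near form, with 1 of the central letters replaced by G or C, lay in the windows of Acta2 and Myl9, 2 of 14, against 9.34% of the named genes; the exact and near forms cannot overlap as defined. These matches are descriptions of letters, not of binding. The windows of Acta2, on the minus strand at chr19:34255324-34255623, and of Myl9, on the plus strand at chr2:156775214-156775513, are shown because they hold the boxes among the contractile genes described next, and capitals mark the boxes.
Acta2 promoter: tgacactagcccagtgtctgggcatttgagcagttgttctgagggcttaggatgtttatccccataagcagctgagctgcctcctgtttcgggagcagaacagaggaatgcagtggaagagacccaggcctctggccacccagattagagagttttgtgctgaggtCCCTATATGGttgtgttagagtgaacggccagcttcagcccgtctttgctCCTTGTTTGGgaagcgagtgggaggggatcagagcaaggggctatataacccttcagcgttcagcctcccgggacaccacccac
Myl9 promoter: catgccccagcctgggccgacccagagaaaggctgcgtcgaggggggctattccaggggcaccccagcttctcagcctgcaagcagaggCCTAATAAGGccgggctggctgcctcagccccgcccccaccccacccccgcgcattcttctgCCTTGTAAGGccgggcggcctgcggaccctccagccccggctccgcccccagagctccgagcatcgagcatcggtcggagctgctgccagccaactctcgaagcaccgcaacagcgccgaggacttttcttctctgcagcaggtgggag

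All values below are the authors' log2 RMA values per array, and each difference is a log2 difference on that scale. Tissue labels held: Car1, a carbonic anhydrase of colonic epithelium, lay at 16.05 to 17.42 in colon and 6.40 to 8.38 in ileum, and Fabp6, the ileal bile acid binding protein, at 9.63 to 13.57 in colon and 18.04 to 18.19 in ileum. Myocd, Nos1, Chat, S100b and Gfap were among the dimmest named probe sets, which 1 of the alternatives removed. Acta2, Actg2, Tagln and Cnn1 had values above 16, the log2 limit of the scanner. Deposited values reached 18.25, so 16 was no ceiling on this scale. Whether differences among such bright genes are compressed was not tested. No detection calls were used, and the number of arrays limits the precision.

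In these genes, 3 arrays stood apart. The orders below were picked with these values known, so the shares beside them describe the arrays and are not a test. Ileum under vancomycin replicate 11 was the highest of the 6 ileal arrays in 28 of the 32 genes, an order found in 25.9% of all named probe sets. Colon under vancomycin replicate 13 and colon without antibiotic replicate 2 were the lowest pair of the 7 colon arrays in 14 of the 18 smooth muscle genes, an order found in 4.39% of all named probe sets, but in 0 of 3 pacemaker and 2 of 8 neuron genes. The mean of the smooth muscle genes was 14.15, 13.31 and 13.82 in colon under vancomycin (replicates 11, 13 and 14) and 13.95, 13.16, 14.07 and 13.92 in colon without antibiotic (replicates 1, 2, 3 and 5). It was 14.12, 13.22 and 12.89 in ileum under vancomycin (replicates 11, 13 and 14) and 12.66, 12.83 and 12.73 in ileum without antibiotic (replicates 1, 2 and 3). In these bulk samples, fewer muscle or nerve cells and less RNA per cell cannot be told apart.

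**Figure D1:**
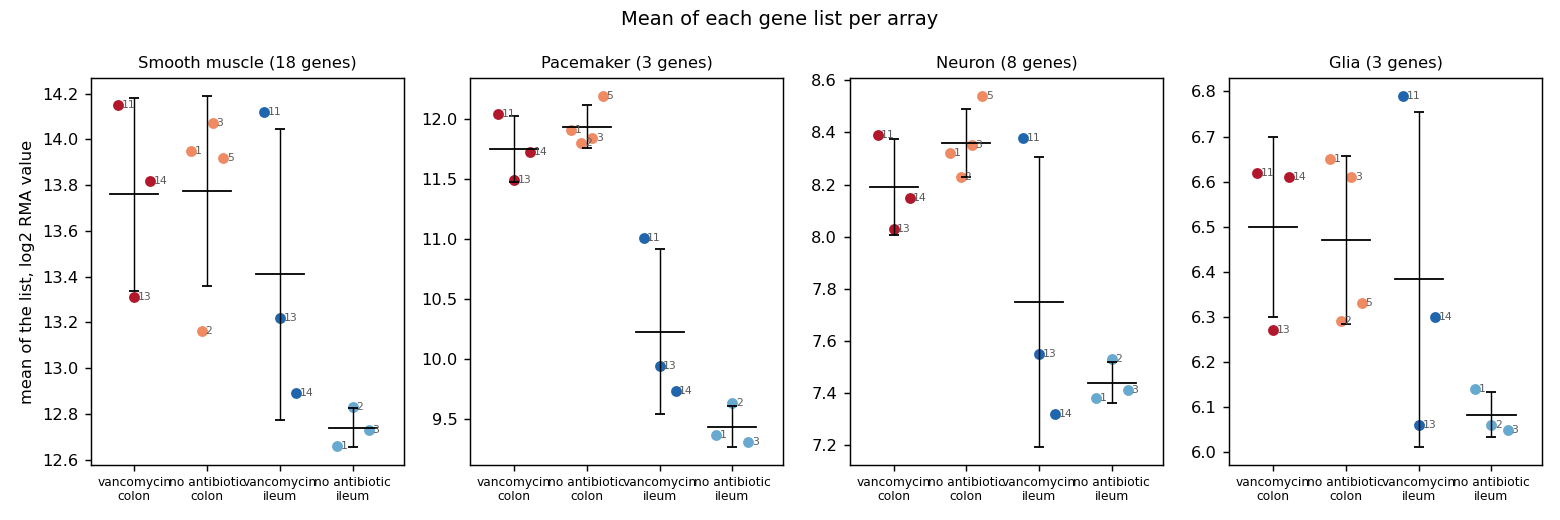
Mean log2 RMA value of the smooth muscle, pacemaker, neuron and glia genes on each array, by group; points are arrays labelled by replicate number, bars are the group mean and SD. In ileum under vancomycin, replicate 11 sits at 14.12 for smooth muscle, above the other 2 replicates at 13.22 and 12.89.

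The first question was how colon and ileum differ without antibiotic. All 32 genes lay higher in colon than in ileum on average, and 21 of them passed the test, none in the other direction: 13 of 18 smooth muscle genes, 3 of 3 pacemaker genes, 5 of 8 neuron genes and 0 of 3 glial genes. Of all named probe sets, 54.7% lay higher in colon and 20.5% were called in this comparison, 11% as higher in colon and 9.59% as lower. The median difference over the 32 genes was 0.99, against 0.04 over all probe sets. The largest difference was in Ano1, the chloride channel of the pacemaker cells. Smooth muscle genes had a median difference of 1.08, pacemaker genes 2.23, neuron genes 0.67 and glial genes 0.34.

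Among the thin filament genes, Acta2, the smooth muscle alpha-actin, measured 16.07, 15.71, 16.10 and 16.03 in colon, against 14.97, 14.98 and 14.84 in ileum. Actg2, the gamma-actin of enteric smooth muscle, measured 16.55, 15.90, 16.81 and 16.62 in colon, against 15.14, 15.19 and 15.09 in ileum. Neither gene's groups overlapped, and replicate 2 was the lowest colon array in both. The limma fit gave 1.05 ± 0.24 for Acta2 (adjusted p = 0.00594) and 1.33 ± 0.24 for Actg2 (adjusted p = 0.00117), errors being standard errors. Tropomyosins lie along actin and set the access of myosin. Tpm1 measured 15.42, 14.81, 15.79 and 15.36 in colon, against 14.55, 14.61 and 14.68 in ileum, a difference of 0.73 ± 0.21. Tpm2 measured 15.72, 14.63, 15.56 and 15.48 in colon, against 14.04, 14.48 and 14.19 in ileum, a difference of 1.11 ± 0.34. In both, colon replicate 2 came closest to the ileal arrays (adjusted p = 0.0254 and 0.0328).

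The actin-binding regulators of smooth muscle gave the same order. Tagln, which encodes transgelin, an early smooth muscle marker, measured 16.75, 16.22, 16.92 and 16.71 in colon, against 15.33, 15.30 and 15.21 in ileum. Cnn1, the calponin that restrains actomyosin ATPase, measured 16.40, 15.56, 16.49 and 16.37 in colon, against 14.50, 14.67 and 14.49 in ileum. The groups of both genes were separate; the fit gave 1.37 ± 0.23 for Tagln (adjusted p = 0.000662) and 1.65 ± 0.30 for Cnn1 (adjusted p = 0.00104). Cald1, caldesmon, another inhibitor of the actin and myosin interaction, measured 14.54, 13.95, 14.81 and 14.33 in colon, against 13.44, 13.81 and 13.62 in ileum. Smtn, smoothelin, found in contractile smooth muscle, measured 13.24, 12.40, 13.04 and 12.86 in colon, against 11.54, 11.86 and 11.68 in ileum. Colon replicate 2 was again the lowest colon array in Cald1 and Smtn, and stayed above the ileal arrays in both. Their differences were 0.78 ± 0.22 and 1.19 ± 0.38 (adjusted p = 0.0201 and 0.0413). Tagln2, a transgelin made in many cell types besides muscle, measured 13.41, 13.35, 13.15 and 13.47 in colon, against 12.35, 12.35 and 12.37 in ileum. Its 3 ileal values were nearly equal, and the difference was 0.99 ± 0.14 (adjusted p = 0.000127).

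Myosin and its scaffold followed. Myh11, the smooth muscle myosin heavy chain, measured 13.13, 12.38, 13.64 and 13.41 in colon, against 11.68, 11.85 and 12.06 in ileum. Des, desmin, the intermediate filament of muscle, measured 14.86, 13.45, 15.10 and 14.81 in colon, against 12.91 to 13.31 in ileum. In both, the lowest colon array, replicate 2, lay just above the highest ileal array. The differences were 1.28 ± 0.42 for Myh11 and 1.48 ± 0.40 for Des (adjusted p = 0.0439 and 0.0167). Synpo2, synaptopodin 2, a protein of actin bundles and dense bodies, had the largest difference among the smooth muscle genes. It measured 13.65, 11.52, 13.60 and 13.28 in colon, against 10.63, 10.63 and 10.87 in ileum, a difference of 2.30 ± 0.52 (adjusted p = 0.00571). Kcnmb1, the beta subunit of the large-conductance calcium-activated potassium channel of smooth muscle, measured 13.27, 12.34, 12.84 and 13.34 in colon, against 11.83, 11.86 and 11.62 in ileum. Its difference of 1.18 ± 0.39 was near the threshold (adjusted p = 0.0475).

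The remaining 5 smooth muscle genes did not pass. Mylk, the myosin light chain kinase, gave 0.08 ± 0.39, with 13.89, 12.78, 14.05 and 14.03 in colon, against 13.33, 13.87 and 13.62 in ileum. Myocd, the coactivator of serum response factor, gave 0.01 ± 0.20 at values of 5.54 to 5.83 in colon and 5.64 to 5.80 in ileum. Myl9, the regulatory light chain, gave 0.72 ± 0.32 and Flna, the actin crosslinker filamin A, gave 0.75 ± 0.41. Lmod1, leiomodin, which nucleates actin filaments, gave 0.61 ± 0.42. These intervals are wide: the 95% interval ran from -0.76 to 0.92 for Mylk and from -0.30 to 1.52 for Lmod1.

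All 3 pacemaker genes were higher in colon. Ano1 measured 12.40, 13.78, 14.02 and 13.13 in colon, against 8.90, 9.51 and 8.71 in ileum. The gap between the lowest colon and highest ileal array exceeded the range within either group, and the difference was 4.29 ± 0.40 (limma, adjusted p = 2.46e-06). Kit, the receptor kinase that marks interstitial cells of Cajal and also mast cells, measured 14.63, 13.02, 13.10 and 14.38 in colon, against 11.47, 11.62 and 11.58 in ileum. The difference was 2.23 ± 0.49 (adjusted p = 0.00483). Etv1, a transcription factor of interstitial cells of Cajal, measured 8.71, 8.61, 8.41 and 9.06 in colon, against 7.75, 7.76 and 7.63 in ileum, a difference of 0.98 ± 0.23 (adjusted p = 0.006). Ano1 and Kit did not share an order among the colon arrays without antibiotic: replicates 1 and 5 were the highest in Kit and the lowest in Ano1. Of 8 mast cell genes, Cpa3 and Mcpt4 were called higher and Mcpt1 lower in colon. Their list mean was 6.74 to 7.05 in colon and 6.48 to 6.72 in ileum. The part of mast cells in the Kit difference was not tested. Nor was the part of epithelial or other cells in the Ano1 and Kit differences.

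Neuron genes differed unevenly. Uchl1, the neuronal ubiquitin hydrolase PGP9.5, measured 9.98, 9.52, 9.41 and 10.34 in colon, against 7.59, 7.98 and 7.82 in ileum. Snap25, a component of the vesicle release machinery, measured 10.45, 10.34, 9.51 and 10.25 in colon, against 8.64, 8.87 and 8.62 in ileum. Neither overlapped between tissues, with differences of 2.02 ± 0.51 and 1.43 ± 0.29 (adjusted p = 0.0114 and 0.00283). Vip, a peptide transmitter that relaxes gut muscle and drives secretion, measured 10.44, 10.60, 10.67 and 10.68 in colon, against 8.83, 9.46 and 8.97 in ileum. Nos1, the neuronal nitric oxide synthase of inhibitory motor neurons, measured 6.50, 6.27, 6.97 and 6.73 in colon, against 6.08, 5.72 and 5.88 in ileum. Vip was nearly even among the colon arrays, and the differences were 1.51 ± 0.36 for Vip and 0.72 ± 0.19 for Nos1 (adjusted p = 0.00748 and 0.0148). Ret, the receptor for GDNF-family ligands that builds the enteric nervous system, measured 9.38, 9.16, 9.39 and 9.73 in colon, against 8.72, 8.80 and 8.90 in ileum. Its difference was 0.61 ± 0.18 (adjusted p = 0.0254).

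Elavl4, a neuronal RNA-binding protein, Tubb3, the neuronal tubulin, and Chat, the enzyme that makes acetylcholine, gave 0.52 ± 0.26, 0.27 ± 0.17 and 0.30 ± 0.13 and did not pass. The glial genes did not pass either: S100b, a calcium-binding protein, gave 0.34 ± 0.16, Sox10, the glial transcription factor, 0.33 ± 0.30, and Gfap, the glial intermediate filament, 0.49 ± 0.17 (adjusted p = 0.0553). Values of the glial genes overlapped between tissues. Of the 32 genes, 12 were called in every alternative processing and with any single array left out: Acta2, Actg2, Tagln, Tagln2, Cnn1, Synpo2, Ano1, Kit, Etv1, Uchl1, Snap25 and Vip. With 1 array left out, the count ran from 12, without ileum replicate 3, to 21, without colon replicate 2. It was 15 without colon replicate 1, 15 without colon replicate 3, 16 without colon replicate 5, 13 without ileum replicate 1 and 14 without ileum replicate 2. Over these fits, 14.9% to 19.7% of all named probe sets were called. The share of all probe sets called in every alternative was not counted, so the 12 genes have no background beside them.

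**Figure D2:**
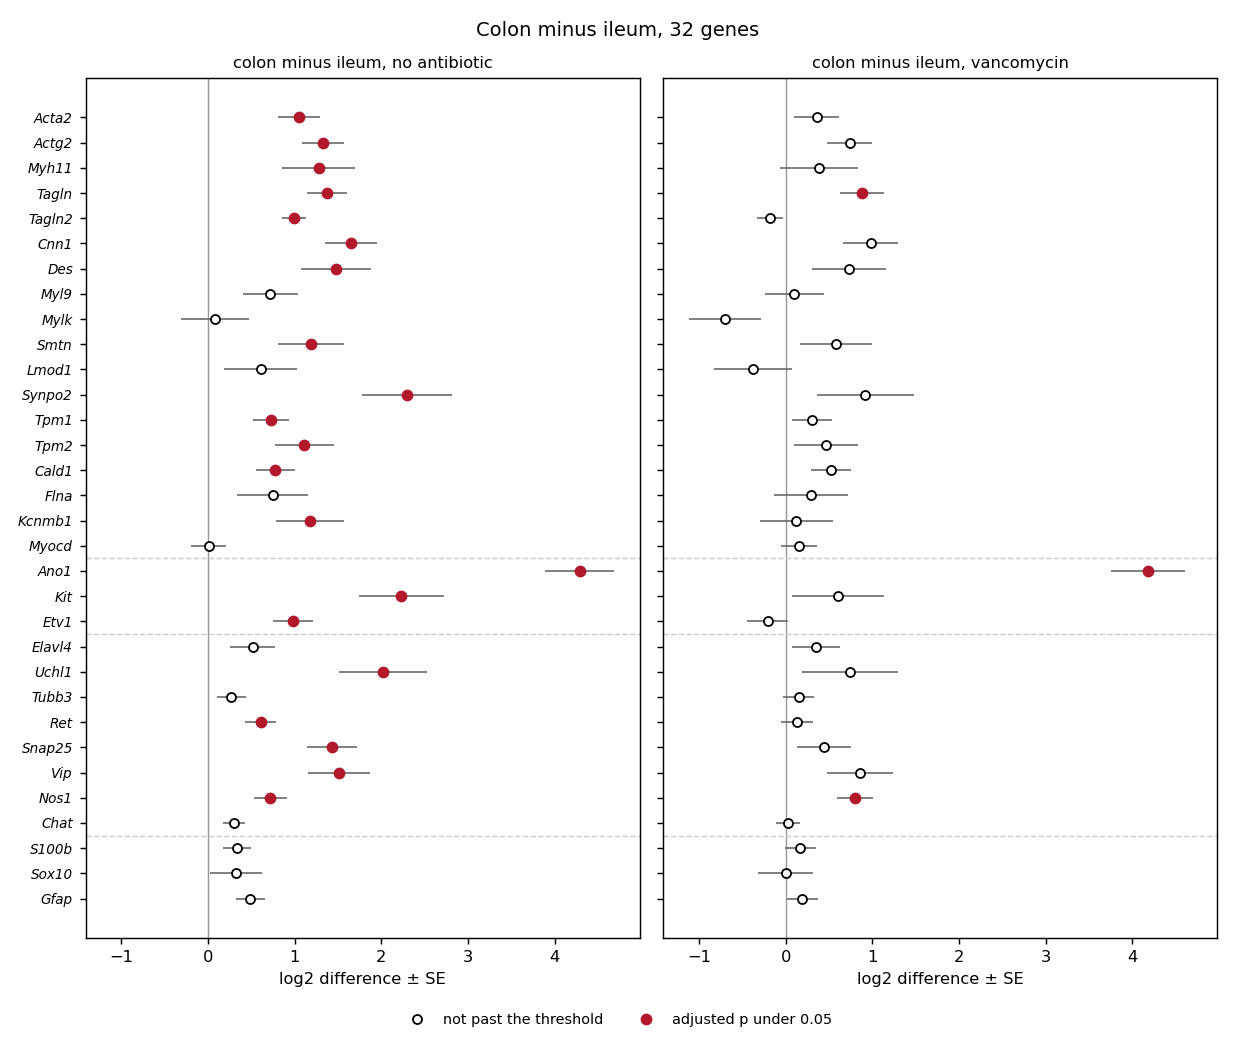
Log2 difference, colon minus ileum, with its standard error for each of the 32 genes, without antibiotic (left) and under vancomycin (right); filled points have an adjusted p under 0.05 and dashed lines part the smooth muscle, pacemaker, neuron and glia genes. Without antibiotic 21 genes are filled and under vancomycin 3, and Ano1 stands furthest right in both at 4.29 and 4.18.

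Other genes of these tissues, from lists given in the processing notes, were read beside the 32. Of 23 further actomyosin and adhesion genes, 10 were higher in colon without antibiotic and 0 lower, led by Hspb1, a small heat shock protein that binds actin (2.56 ± 0.45), and Itga5, an integrin subunit (1.97 ± 0.40). Without ileum replicate 3, 6 of the 23 were called. Of 16 contraction signalling genes, 2 were higher and 2 lower. Tacr2, the neurokinin A receptor of gut muscle, gave 1.99 ± 0.50 and Ppp1r14a, the myosin phosphatase inhibitor CPI-17, gave 1.72 ± 0.36. Atp2a2, the calcium pump of the sarcoplasmic reticulum, gave -0.66 ± 0.15 and Pde5a, a cyclic GMP phosphodiesterase, gave -0.90 ± 0.19. Of 12 transcriptional and patterning regulators, Mef2d (0.62 ± 0.14) and Bmp4 (1.33 ± 0.28) were higher. Of 6 genes of pacemaker support and PDGFRA-positive cells, Kitl, the ligand of Kit, was higher (1.47 ± 0.18), as was Thbs4, a thrombospondin (2.20 ± 0.21).

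Of 30 further neuron genes, 12 were higher in colon without antibiotic and 1 lower; the count of higher genes was 7 without colon replicate 1 and 7 without ileum replicate 1. Penk, the enkephalin precursor of excitatory motor neurons, measured 10.72, 9.72, 11.11 and 10.72 in colon, against 7.61, 7.51 and 7.41 in ileum (3.06 ± 0.47). Edn3, the endothelin that keeps enteric neural crest cells dividing, ran the other way at 10.38, 8.93, 10.37 and 9.65 in colon, against 13.16, 13.07 and 13.11 in ileum (-3.28 ± 0.45). It is a ligand that acts on these cells, and which cells made it here was not tested. Calb2, calretinin, gave 1.79 ± 0.43, Grp, gastrin-releasing peptide, 1.72 ± 0.26, and Tac1, the substance P precursor, 1.53 ± 0.38. The neurofilament genes Nefl and Nefm gave 1.21 ± 0.19 and 1.36 ± 0.14. Of 8 further glial genes 1 was higher, the adhesion gene Ncam1 (1.70 ± 0.42), which neurons also make; 0 were called without ileum replicate 1 and 2 without ileum replicate 2.

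Marker lists of other cells also differed, some higher and some lower in colon. Fibroblast genes were higher in colon in 5 of 7, led by Col3a1 (1.48 ± 0.23), with a list mean of 10.77 to 11.20 in colon and 10.01 to 10.15 in ileum; 2 or 3 were called when any 1 array other than colon replicate 2 was left out. Enteroendocrine genes, which share vesicle machinery with neurons, were higher in 6 of 8 and lower in 1, with list means of 9.65 to 10.13 in colon and 8.70 to 8.88 in ileum. Adipocyte genes were lower in 4 of 4, at 8.58 to 9.77 in colon and 11.25 to 11.77 in ileum, mesothelial genes were lower in 2 of 5 (0 to 3 with 1 array left out), and epithelial genes were higher in 1 and lower in 4 of 12. Of the 6 pericyte and vascular mural genes none was called, at list means of 8.49 to 9.16 in colon and 8.75 to 8.95 in ileum, which overlapped. Of the 6 endothelial genes none was called either, but all 6 lay above 0 with a median difference of 0.58, and their list means did not overlap, at 8.04 to 8.65 in colon and 7.63 to 7.69 in ileum. Over the 13 arrays, the lowest means of these other-cell lists were those of mast cell genes, at 6.40 to 7.21, and skeletal muscle genes, at 6.33 to 6.71. The part of these cells in the muscle and nerve differences was not tested.

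Under vancomycin the same tissue comparison gave 3 called genes, all higher in colon: Tagln, Ano1 and Nos1. Of all named probe sets 15.1% were called, 7.45% as higher. The median difference over the 32 genes was 0.35. Ano1 measured 13.71, 14.28 and 14.14 in colon, against 10.81, 9.25 and 9.54 in ileum, a difference of 4.18 ± 0.43 (adjusted p = 9.17e-06), and was the 1 gene called in every alternative. Tagln measured 16.70, 16.30 and 16.98 in colon, against 16.33, 15.69 and 15.33 in ileum (0.88 ± 0.25, adjusted p = 0.0274). Nos1 measured 6.94, 6.37 and 6.71 in colon, against 6.15, 5.68 and 5.79 in ileum (0.80 ± 0.21, adjusted p = 0.0157). Ileum replicate 11 overlapped colon in Tagln but not in Ano1 or Nos1.

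Leaving out ileum replicate 11 raised the count under vancomycin to 12, with 20.2% of all named probe sets called. The 12 were Acta2 (0.71), Actg2 (1.03), Tagln (1.15), Cnn1 (1.35), Smtn (1.09), Cald1 (0.75), Ano1 (4.65), Elavl4 (0.71), Uchl1 (1.58), Snap25 (0.82), Vip (1.51) and Nos1 (0.94). Vip then reached an adjusted p of 3.52e-05 and Uchl1 of 0.00479. Leaving out both arrays numbered 11 gave 7 called genes, with 18.2% of all named probe sets called. Leaving out any other single array gave 1 to 4, with 11.2% to 13.3% of all called. The count was 1 without colon replicate 11, 1 without colon replicate 14, 1 without ileum replicate 13 and 1 without ileum replicate 14. That 21 genes passed without antibiotic and 3 under vancomycin does not show that the tissue difference changed; the test of that change is given last.

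Under vancomycin, 5 of the 30 further neuron genes were higher in colon and 2 lower, and 2 of the 6 genes of pacemaker support and PDGFRA-positive cells were higher and 1 lower. Thbs4 gave 3.03 ± 0.23, Penk 2.41 ± 0.50, Tac1 1.97 ± 0.40 and Grp 1.75 ± 0.27, and Kitl passed too, all higher in colon. Without ileum replicate 11, 13 of the 30 neuron genes were higher and 2 lower, and without both arrays numbered 11, 10 were higher and 2 lower; without ileum replicate 13, 3 were higher. Edn3 (-3.33 ± 0.48), its receptor Ednrb (-1.38 ± 0.22) and Prkcq, a protein kinase C of pacemaker cells (-1.36 ± 0.32), were lower in colon. Of the 16 contraction signalling genes, 4 were lower and 0 higher: Atp2a2, Pde5a, Chrm2, the muscarinic M2 receptor of gut muscle, and Casq2, a calcium store protein. Without ileum replicate 11, Chrm2 (-0.39, adjusted p = 0.0875), Casq2 (-0.47, adjusted p = 0.123) and Atp2a2 (-0.41, adjusted p = 0.121) no longer passed, while Cacna1c, a subunit of the L-type calcium channel, Tacr2 and Ppp1r14a then passed as higher. The list then held 3 higher and 1 lower, and its median was 0.17, against -0.19 with all arrays. The 4 lower calls were also 2 without colon replicate 11, 0 without colon replicate 13, 0 without colon replicate 14 and 1 without ileum replicate 13. In the fit on the groups compared alone, none of these 4 passed, and Prkcq did not pass either. With the replicate number as a block, Pde5a and Chrm2 did not pass, which left Atp2a2 and Casq2 as lower and gave Tacr2 as higher; among the neuron genes Nefm did not pass, Calb2 was gained as higher and Gal, galanin, as lower. Of the 12 regulators 1 was called, Srf, which encodes serum response factor, as lower in colon (-0.91, and -0.82 without ileum replicate 11). Fabp7, of the 8 further glial genes, was called lower (-0.81), and Cnn3, of the 23 actomyosin genes, higher (0.80). Each of these calls was lost in some alternative, that of Fabp7 without colon replicate 14. Fibroblast genes were higher in colon in 1 of 7 (0 to 2 with 1 array left out) and adipocyte genes lower in 4 of 4.

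**Figure D3:**
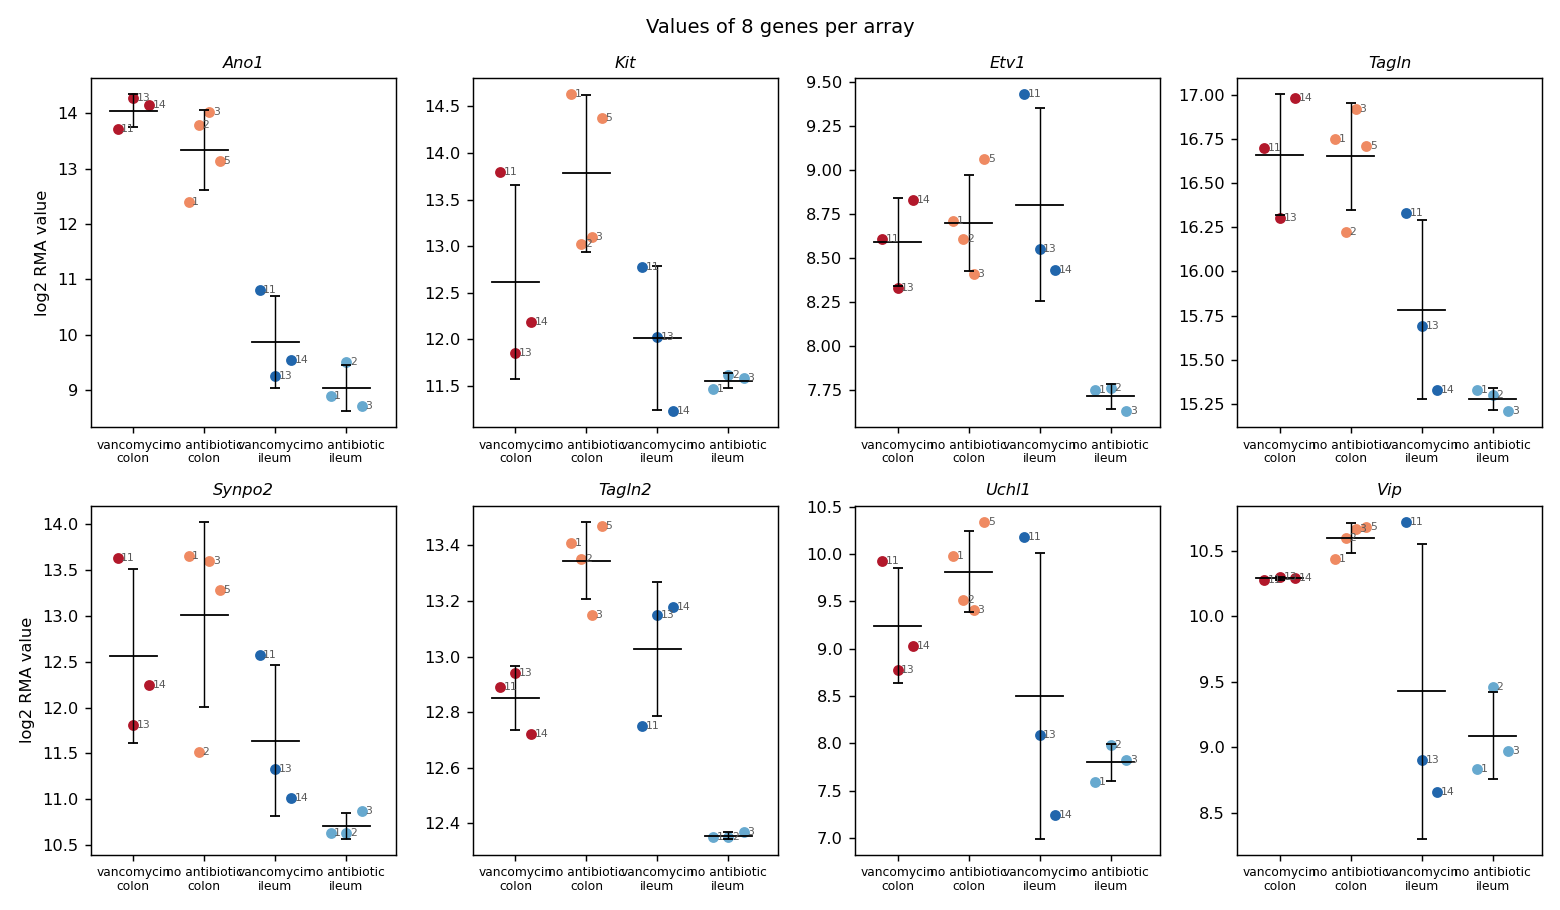
Log2 RMA values of 8 genes on each array, by group; points are arrays labelled by replicate number, bars are the group mean and SD, and each panel has its own scale, which does not start at 0. Ano1 separates colon from ileum in both treatments, while ileum under vancomycin replicate 11 reaches the colon values in Uchl1 at 10.18 and Vip at 10.72.

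The second question was what vancomycin did to these genes in the ileum. None of the 32 passed the test, while 0.536% of all named probe sets did, 0.0511% higher and 0.485% lower. At an unadjusted p under 0.05, 8 of the 32 were higher and 0 lower, against 4.97% of all named probe sets that were higher. The changes leaned one way: 30 of 32 lay above 0, against 53.8% of all probe sets, with a median of 0.58, against 0.02. The groups did not overlap in 11 genes, all higher under vancomycin, against 8.57% of all probe sets. Median changes were 0.72 in smooth muscle, 0.83 in pacemaker, 0.35 in neuron and 0.15 in glial genes. Without vancomycin replicate 11 the medians were 0.35, 0.35, 0.02 and 0.06 in the same order, and 26 of 32 still lay above 0, 16 of 18 in smooth muscle, against 10459 of all 19572 probe sets.

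The 3 smooth muscle genes with the largest changes were Myh11, Flna and Synpo2. Myh11 measured 14.05, 12.62 and 12.04 under vancomycin (replicates 11, 13 and 14), against 11.68, 11.85 and 12.06 without antibiotic. Flna measured 15.43, 14.21 and 13.46 under vancomycin, against 13.30, 13.40 and 13.41 without antibiotic. In both the arrays under vancomycin were spread widely and those without antibiotic narrowly. The changes were 1.04 ± 0.45 (limma, adjusted p = 0.452) and 1.00 ± 0.43 (adjusted p = 0.458), and without replicate 11 they were 0.47 and 0.46. Synpo2 measured 12.57, 11.33 and 11.02 under vancomycin, against 10.63, 10.63 and 10.87 without antibiotic, with all 3 above; its change was 0.93 ± 0.56 (adjusted p = 0.597), and 0.46 without replicate 11. Over the 18 smooth muscle genes, vancomycin replicates 13 and 14 both lay above every array without antibiotic in 9, an order that 16.7% of all probe sets had.

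Tagln2 and Etv1 came nearest to the threshold. Tagln2 measured 12.75, 13.15 and 13.18 under vancomycin, against 12.35, 12.35 and 12.37 without antibiotic. Here replicate 11 was the lowest of the arrays under vancomycin, unlike in the other genes of the smooth muscle list. The change was 0.67 ± 0.15 (adjusted p = 0.0689), and 0.81 without replicate 11 (adjusted p = 0.0172), which passes. Etv1 measured 9.43, 8.55 and 8.43 under vancomycin, against 7.75, 7.76 and 7.63 without antibiotic. All 3 lay above every array without antibiotic, and the change was 1.09 ± 0.24 (adjusted p = 0.0689), or 0.78 without replicate 11 (adjusted p = 0.107). Etv1 passed when vancomycin replicate 14 was left out, at 1.28. Ano1 and Kit, the other pacemaker genes, gave 0.83 ± 0.43 and 0.46 ± 0.53, and 0.35 and 0.07 without replicate 11.

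Among neuron and glial genes, Uchl1 measured 10.18, 8.09 and 7.24 under vancomycin, against 7.59, 7.98 and 7.82 without antibiotic. Elavl4 measured 9.79, 8.57 and 8.81 under vancomycin, against 8.75, 8.74 and 8.28 without antibiotic. Sox10 measured 8.57, 7.04 and 7.34 under vancomycin, against 7.08, 7.14 and 6.73 without antibiotic. In each, replicate 11 lay far above the arrays without antibiotic, and replicate 13 or 14 lay within or below their range. Their changes were 0.71 ± 0.55, 0.47 ± 0.28 and 0.67 ± 0.32, and without replicate 11 they were -0.13, 0.10 and 0.21. Vip gave 0.34 ± 0.38 with replicate 11 and -0.31 without it. Ret, with 9.18, 9.34 and 8.98 under vancomycin, against 8.72, 8.80 and 8.90 without antibiotic, was the neuron gene whose groups did not overlap (0.36 ± 0.19, adjusted p = 0.544).

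Replicate 11 of ileum under vancomycin exceeded the mean of replicates 13 and 14 by a median of 1.24 over the smooth muscle genes, 1.15 over the pacemaker genes, 0.76 over the neuron genes and 0.39 over the glial genes, against -0.01 over all probe sets. The single largest excess was 2.51, in Uchl1, followed by 1.94 in Vip and 1.72 in Myh11. Tagln2 was lower in that array by 0.41 (-0.41). Replicate 11 was the highest ileal array in 16 of 18 smooth muscle, 3 of 3 pacemaker, 7 of 8 neuron and 2 of 3 glial genes. In 13 of the 32 genes it lay above all 4 arrays of colon without antibiotic, as did 25.5% of all probe sets.

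Other cell types moved in the same array. B cell genes averaged 10.09 in replicate 11, 7.75 and 7.33 in replicates 13 and 14, and 7.41 to 8.04 in ileum without antibiotic. Fibroblast genes averaged 11.05, 10.10 and 10.10 under vancomycin and 10.01 to 10.15 without antibiotic. Pericyte and vascular mural genes averaged 9.95, 9.10 and 8.94 under vancomycin and 8.75 to 8.95 without antibiotic, and endothelial genes 8.88, 7.94 and 7.79, against 7.63 to 7.69. Epithelial genes averaged 14.78, 15.30 and 15.31 under vancomycin and 15.27 to 15.37 without antibiotic. Enteroendocrine genes averaged 9.24, 9.15 and 9.12 under vancomycin and 8.70 to 8.88 without antibiotic, so all 3 arrays lay above, not replicate 11 alone. Edn3 was 11.22 in replicate 11, against 13.05 to 13.16 in the other 5 ileal arrays. The array's mean correlation with its own group was 0.977, the lowest of the 13, and limma's array weights gave it 0.30. How far tissue composition and treatment each contribute to replicate 11 cannot be told apart, because the array belongs to the treated group.

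**Figure D4:**
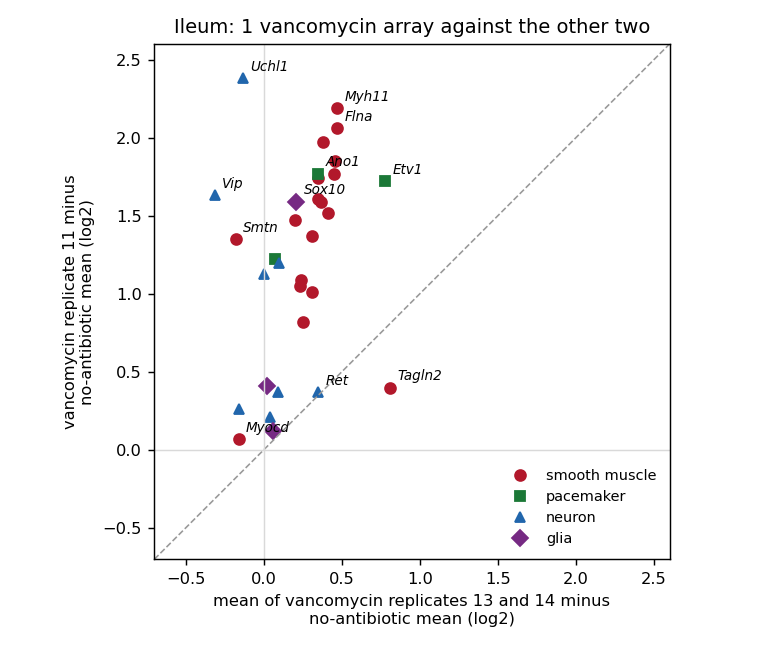
For each of the 32 genes, the mean of vancomycin replicates 13 and 14 minus the mean of ileum without antibiotic (horizontal, log2) against replicate 11 minus the same mean (vertical, log2); the dashed line marks equal values. Nearly all genes lie above the line, Uchl1, Vip and Myh11 furthest, and Tagln2 lies below it.

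Of the 95 further genes of these tissues, 0 were called by limma in the ileum under vancomycin; at an unadjusted p under 0.05, 14 were higher and 3 lower. Ednrb (0.80 ± 0.22, adjusted p = 0.181), Gfra1, a co-receptor of Ret (0.53 ± 0.16, adjusted p = 0.219), Ppp1r12b, a myosin phosphatase subunit (-0.64 ± 0.20, adjusted p = 0.25) and Chrm2 (0.67 ± 0.21, adjusted p = 0.253) came nearest. Without replicate 11 they were 0.54, 0.50, -0.53 and 0.37.

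In the colon, vancomycin left the list without a shared direction. None of the 32 genes passed in the limma fit, and 0.0102% of all named probe sets did; at an unadjusted p under 0.05, 0 of the 32 were higher and 2 lower, Tagln2 and Kit, against 15.9% of all probe sets in either direction. The median change was -0.01 over the 32 genes, with 15 above 0, against 53.0% of all probe sets, and 0.01 over the smooth muscle genes. The intervals do not exclude moderate changes: the 95% interval ran from -0.49 to 0.51 for Tagln and from -0.75 to 1.04 for Myh11.

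Tagln2 measured 12.89, 12.94 and 12.72 under vancomycin (replicates 11, 13 and 14), against 13.41, 13.35, 13.15 and 13.47 without antibiotic (replicates 1, 2, 3 and 5). The groups did not overlap, as in 5.57% of all probe sets that were lower, and the change was -0.50 ± 0.14 (adjusted p = 0.157). Vip was the other gene without overlap, at 10.28, 10.30 and 10.29 under vancomycin, against 10.44, 10.60, 10.67 and 10.68 without antibiotic (-0.31 ± 0.36, adjusted p = 0.712). Kit measured 13.80, 11.85 and 12.19 under vancomycin, against 14.63, 13.02, 13.10 and 14.38 without antibiotic, and its groups overlapped (-1.17 ± 0.49, adjusted p = 0.273). Ano1 gave 0.71 ± 0.40, with 13.71, 14.28 and 14.14 under vancomycin, against 12.40, 13.78, 14.02 and 13.13 without antibiotic. Over these 7 arrays, the 2 lowest in Ano1 were the 2 highest in Kit.

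Other members with the larger colon changes also overlapped between groups. Flna measured 15.05, 14.27 and 14.65 under vancomycin, against 14.04, 13.20, 14.62 and 14.60 without antibiotic (0.54 ± 0.41). Synpo2 measured 13.63, 11.81 and 12.25 under vancomycin, against 13.65, 11.52, 13.60 and 13.28 without antibiotic (-0.45 ± 0.52). In Synpo2 each group spanned nearly the same range. Snap25 measured 9.90, 9.46 and 9.23 under vancomycin, against 10.45, 10.34, 9.51 and 10.25 without antibiotic (-0.61 ± 0.29). Uchl1 measured 9.93, 8.77 and 9.03 under vancomycin, against 9.98, 9.52, 9.41 and 10.34 without antibiotic (-0.57 ± 0.51). Sox10 measured 7.83, 7.23 and 7.88 under vancomycin, against 7.65, 7.11, 7.29 and 7.19 without antibiotic (0.34 ± 0.30). None of these passed, the smallest adjusted p among them being 0.33, for Snap25.

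The smooth muscle median in the colon moved with single arrays: it was -0.17 without vancomycin replicate 11, 0.25 without vancomycin replicate 13, -0.07 without vancomycin replicate 14 and -0.18 without replicate 2 of the arrays without antibiotic, and none of the 32 genes was called in any of these fits. Enteroendocrine genes, at list means of 8.91 to 9.72 under vancomycin and 9.65 to 10.13 without antibiotic, lay below 0 in all 8, with a median change of -0.53 and 5 of 8 at an unadjusted p under 0.05; whether they bear on Snap25 and Uchl1 was not tested. Of the further genes, Cartpt, a neuropeptide precursor (-0.72 ± 0.16, adjusted p = 0.0968), Nefm (-0.58 ± 0.14, adjusted p = 0.119) and Bmp4 (-1.11 ± 0.28, adjusted p = 0.126) came nearest to the threshold; by limma 0 of 95 were called, with 2 higher and 5 lower at an unadjusted p under 0.05.

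**Figure D5:**
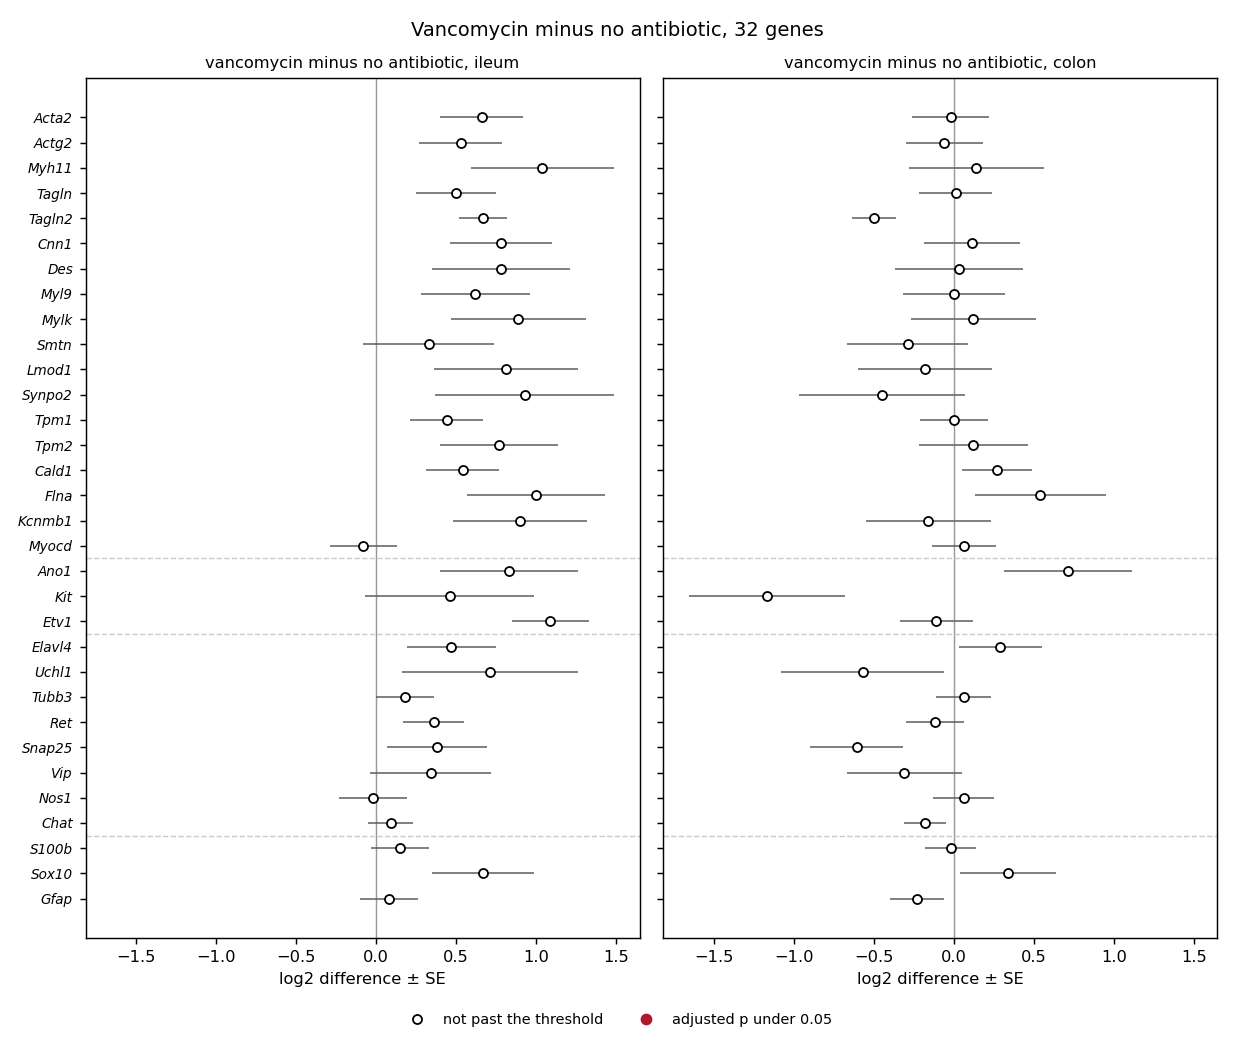
Log2 change, vancomycin minus no antibiotic, with its standard error for each of the 32 genes in ileum (left) and colon (right); dashed lines part the smooth muscle, pacemaker, neuron and glia genes, and filled points would mark an adjusted p under 0.05. No point is filled; 30 of 32 ileal changes lie above 0, against 15 of 32 in the colon.

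The last question was whether vancomycin acted differently in the 2 tissues, which is also the test of whether the colon and ileum difference changed. In limma, 1 of the 32 genes passed, Tagln2, against 0.189% of all named probe sets, 0.0307% with the ileal change the higher. Its change was 0.67 ± 0.15 in ileum and -0.50 ± 0.14 in colon, a difference, ileum minus colon, of 1.17 ± 0.20 (adjusted p = 0.0395). The median of this difference over the 32 genes was 0.62, against 0.00 over all probe sets, and 4 genes were higher at an unadjusted p under 0.05, against 4.12% of all probe sets: Tagln2, Etv1 (1.20 ± 0.33, adjusted p = 0.273), Snap25 (0.98 ± 0.43, adjusted p = 0.586) and Kit (1.63 ± 0.72, adjusted p = 0.601). Enteroendocrine genes moved the same way: all 8 lay above 0, with a median difference of 0.99 and 5 at an unadjusted p under 0.05, and 1 was called, Tph1, the enzyme of serotonin synthesis (2.10 ± 0.33, adjusted p = 0.0184). Their part in the Snap25 value was not tested. Without ileum replicate 11 the median over the smooth muscle genes was 0.30, against 0.66 with all arrays.

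Tagln2 kept its direction in every alternative, between 1.09 and 1.30 with 1 array left out, but its call was fragile. It passed without ileum under vancomycin replicate 11 (1.30, adjusted p = 0.00896), with both arrays numbered 11 left out, and without colon replicate 3 of the arrays without antibiotic. It did not pass when any 1 of the other 11 arrays was left out, with arrays centred on their medians, or with the replicate number as a block.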

How the data were processed

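Biotin-labelled total RNA of 13 samples was measured on Affymetrix mouse arrays, 1 sample per array. The authors deposited 1 log2 value per probe set and array. The submitters' processing notes name RMA, and also Affymetrix Expression Console (version 1.4.1.46), without saying which did what; RMA corrects background, quantile-normalizes arrays and summarizes probes, which evens out array-wide differences. Array medians were 7.98 to 8.14, and no 2 columns were identical. The platform annotation named 19572 of 28846 probe sets with 1 gene. Cross-hybridisation between paralogs (Acta2 and Actg2, Tpm1 and Tpm2) was not tested.

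A limma model (version 3.58.1, in R 4.3.3) with 1 mean per group was fitted to all 13 arrays and moderated with eBayes, and 5 contrasts were tested. Benjamini-Hochberg adjustment ran over all 19572 probe sets, and a call means an adjusted p under 0.05. The fit was tested on simulated data. The labels give no cage, batch or date.

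The genes and lists were chosen with earlier results of these data known. All 32 genes are described. Array values are given for genes past the threshold and otherwise for the largest changes of each group. Other genes of the lists that are named are a selection of those called in a fit or among the smallest p. The further lists held actomyosin, contraction signalling, regulator, pacemaker support, neuron and glial genes, and marker lists held epithelium, B cells, endothelium, pericytes, fibroblasts, mesothelium, adipocytes, skeletal muscle, mast, enteroendocrine and tuft cells. Skeletal muscle list means were 6.33 to 6.57 in colon and 6.49 to 6.71 in ileum, and tuft cell genes were higher in colon without antibiotic in 2 of 7.

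Colon and ileum arrays share replicate numbers. The deviations of same-numbered arrays correlated at 0.24, 0.18 and 0.11 under vancomycin and at 0.08, 0.03 and -0.02 without antibiotic. Differently numbered arrays reached 0.15 under vancomycin (ileum 14 with colon 13) and 0.16 without antibiotic (ileum 3 with colon 5). These values do not settle whether same-numbered arrays came from the same mouse. The main fit used no pairs, and the replicate block was an alternative. Alternatives were fits on the groups compared alone, array weights, a trended robust prior, removal of dim probe sets, quantile normalization, median centring, means of probe sets, the replicate block, and leaving out arrays.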

Additional observations from a re-analysis of the deposited data

Results flagged for a closer look

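In colon without antibiotic, replicate 2 stood apart from the other 3 arrays by Dixon's test in 3 of the 32 genes, at 15.56 in Cnn1, 12.82 in Myl9 and 12.78 in Mylk. Chance flags about 1 in 20 such groups. The test was run only on this group, which holds 4 arrays. The groups of 3 arrays, among them ileum under vancomycin, were not tested. The vancomycin change of Tagln2 differed between ileum and colon by 1.17 (limma, adjusted p = 0.0395), with a change of 0.67 in ileum and -0.50 in colon; the test of the difference itself singled it out.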

How the results depend on the processing

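No result changed direction while called. In ileum under vancomycin, the count of 0 called genes was 2 with array weights (Tagln2 and Etv1). That fit called 5.17% of all named probe sets. The count was 1 with quantile normalization (0.378% of all) and 1 with median centring (0.506%). With 1 array left out it was 0 to 1 (0.204% to 0.879%). Colon against ileum without antibiotic gave 12 to 21 with 1 array left out, where 14.9% to 19.7% of all named probe sets were called. The median of its nerve and glial genes was then 0.40 to 0.62. Under vancomycin the count of 3 was 1 in the fit on those groups alone, where 9.58% of all named probe sets were called. It was 9 with array weights (25.1% of all) and 5 with median centring (14.6%). With 1 array left out it was 1 to 12 (11.2% to 20.2%). Leaving out both arrays numbered 11, an alternative chosen after seeing the data, gave 7 (18.2%). The difference between tissues had 0 called genes with median centring (0.184% of all named probe sets) and 0 with the replicate block (0.118%). With 1 array left out it had 0 to 1 (0.0613% to 0.429%). The cause was not tested.

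The replicate block changed no call of the 32 genes under vancomycin, where it gave the same 3; its effect on the further genes stands beside them. Without antibiotic it gave 19, of which 18 were shared with the fit without it, and 18.7% of all named probe sets were called. Over single genes, 3691 recalculations kept their side of the threshold, 170 lost it and 60 gained it. Each group holds 3 or 4 arrays, and signal over background is not known without detection calls.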
